A study of Homo sapiens with 8 samples.

Results

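Genes that hold start sites of both cell states are described here: ATXN1, CAMTA1, HIVEP3, CELF4, KLHL29, BCAS3, FRMD4A, GPC6, NXN and MAP3K7CL. The study mapped where transcription begins in senescent and in proliferating IMR90 fibroblasts, a human foetal lung line, and its authors deposited a list of starts for each state, named for starts found in that state and not in the other. The 10 genes were chosen from those lists, because each had at least 1 senescent-only and at least 1 proliferating-only site whose midpoint lay within the gene or up to 1 kb before it. Of 849 senescent-only sites they held 16, and 17 of 400 proliferating-only ones, which makes 33 of 1249 sites in all. The genes were 10 of the 16 protein-coding genes that held a site of each list. A further 598 coding genes held sites of 1 list. Every site lay within its gene, so the stretch before the gene added none (0). Having both kinds of site is thus how the genes were picked and is no result, and the same holds for the reads and folds of their sites, which are given as a description without a test.

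The senescent cells had been passaged until they stopped dividing and were then kept in the dish. PRO-cap was made from them at population doubling 76, once, and at population doubling 67, as libraries A and B (n = 3), and PRO-seq at population doubling 76 (n = 1). Proliferating cells gave PRO-cap at population doubling 23, once, and at population doubling 26, as libraries A and B (n = 3), and PRO-seq at population doubling 20 (n = 1). All 8 libraries were of the same line grown at low oxygen, so that they share 1 donor genome. Population doubling differs between the states along with arrest, and the effects of these cannot be told apart. PRO-cap labels RNA that polymerases are extending in permeabilised cells and keeps the capped 5′ ends, and PRO-seq maps the polymerases themselves. The analysis rests on the start site lists, which hold 1 fold per site over both states and no value per library. No spread between cultures, no expression level and no fibroblast marker could therefore be read from them, and PRO-seq was not analysed here.

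Most transcription of a gene begins at its promoter, but capped RNA also starts inside genes, at alternative promoters, at enhancers lying in introns and at cryptic sites. Enhancers typically start RNA on both strands, pointing away from each other. Transcription factors of the AP-1 family, dimers of FOS and JUN proteins, bind many enhancers of fibroblasts and are known for their part in the enhancer landscape of senescent cells. A gene with a site of each list shows where, in the same stretch of DNA, starts that differ strongly between dividing and arrested cells lie. Starts used alike in both states are in neither list.

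Each deposited site was 150 bases wide and was marked + whatever its direction. The sequence at the centre of the sites had the pattern of a base where transcription begins. Polymerase II favours a pyrimidine followed by a purine, the purine being the first base of the RNA. This start pair stood at the central base, on the plus or the minus strand, in 732 of 849 senescent-only sites (86.2%, Wilson 95% interval 83.7 to 88.4) and in 344 of 400 proliferating-only sites (86.0%, 82.3 to 89.1). At offsets of 10 to 60 bases its share ran between 39.3% and 48.3% and between 34.5% and 47.0%. A centre that reads as a pair on the plus strand cannot read as one on the minus strand, so the pair gives a direction to most sites. That direction is read from DNA and can be wrong where a pair stands at the centre by its base composition alone.

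**Figure D1:**
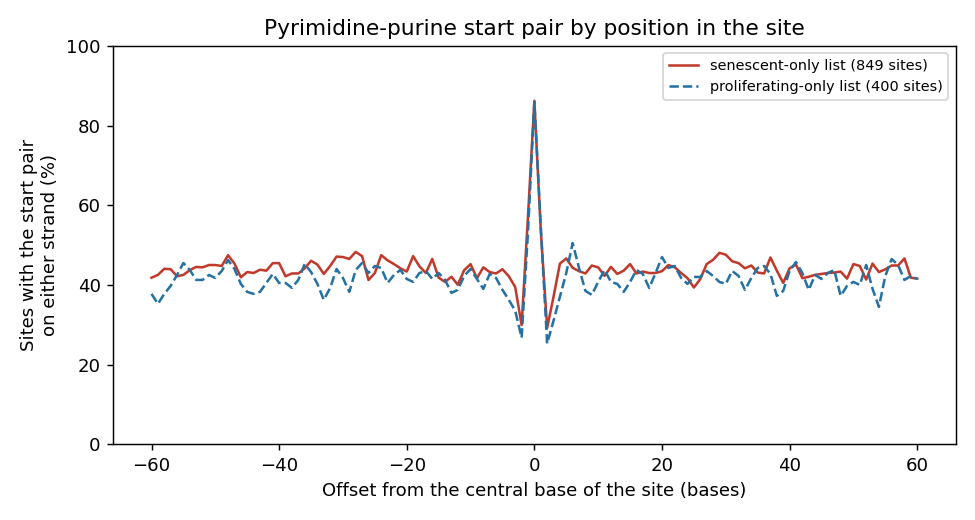
Share of sites (%) with a pyrimidine-purine start pair on either strand, by offset in bases from the central base, for the senescent-only list (solid line, 849 sites) and the proliferating-only list (dashed line, 400 sites). Both lines peak at the centre, at 86.2% and 86.0%, above every offset of 10 to 60 bases, where the highest values were 48.3% and 47.0%.

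Among the sites of the 10 genes, 13 of 16 senescent-only and 13 of 17 proliferating-only sites had a start pair. The sites below are examples and do not stand for either list. The proliferating-only sites with an AP-1 match, in ATXN1 and GPC6, are not among them. NXN and KLHL29 are given because their senescent-only and proliferating-only starts lie closest together. CAMTA1 and FRMD4A are given because 1 senescent-only start of each has an AP-1 match near it. The senescent-only site of CELF4 is given because it lies closest to an annotated transcript start. Each is the 150 bases of the site in the GRCh37 reference (hg19 coordinates), 5′ to 3′ on the named strand. Capitals mark the start pair at the centre and AP-1 matches, TGACTCA or TGAGTCA.
NXN senescent-only start, chr17:772420-772569, plus strand, no start pair at the centre: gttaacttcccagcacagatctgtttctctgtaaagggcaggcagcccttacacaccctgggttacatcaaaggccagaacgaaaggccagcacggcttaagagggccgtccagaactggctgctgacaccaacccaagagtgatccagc
NXN proliferating-only start, chr17:762751-762900, plus strand: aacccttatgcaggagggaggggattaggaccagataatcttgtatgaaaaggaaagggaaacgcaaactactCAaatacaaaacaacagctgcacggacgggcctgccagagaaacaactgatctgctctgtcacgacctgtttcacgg
KLHL29 senescent-only start, chr2:23830060-23830209, plus strand: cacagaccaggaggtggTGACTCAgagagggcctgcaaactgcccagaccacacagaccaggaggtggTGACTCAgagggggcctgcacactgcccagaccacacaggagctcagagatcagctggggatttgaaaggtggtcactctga
KLHL29 proliferating-only start, chr2:23786579-23786728, minus strand: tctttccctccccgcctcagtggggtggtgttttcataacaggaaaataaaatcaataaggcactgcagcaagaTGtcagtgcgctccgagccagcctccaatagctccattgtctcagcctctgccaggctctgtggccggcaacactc
CAMTA1 senescent-only start, chr1:7462251-7462400, plus strand: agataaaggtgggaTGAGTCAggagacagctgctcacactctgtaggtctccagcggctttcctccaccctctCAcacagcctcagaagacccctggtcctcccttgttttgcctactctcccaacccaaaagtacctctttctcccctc
FRMD4A senescent-only start, chr10:14188765-14188914, minus strand: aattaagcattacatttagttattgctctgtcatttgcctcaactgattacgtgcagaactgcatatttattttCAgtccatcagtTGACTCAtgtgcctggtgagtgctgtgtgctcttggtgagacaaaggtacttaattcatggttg
CELF4 senescent-only start, chr18:34834525-34834674, minus strand: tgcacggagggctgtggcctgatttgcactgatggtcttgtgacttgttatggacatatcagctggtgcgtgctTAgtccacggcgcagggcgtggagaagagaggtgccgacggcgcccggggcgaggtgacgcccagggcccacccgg

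In the KLHL29 senescent-only site the start pair is the end of an AP-1 match, so that the start base is the last base of TGACTCA. The match occurs a second time in that site, within a repeated stretch of which 27 bases in a row are identical.

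Per the values of the deposited list, the folds were whole reads times a fixed step per state, plus a pseudocount of 1, so that the reads behind each site could be recovered. All 1249 folds gave whole numbers within 1e-06 of a read. The step was 1.20 times larger per read for proliferating cells, which is the factor used below wherever reads of the states are scaled to each other. A scaled ratio sets the state a list is named for over the other state. Senescent-only sites of the 10 genes rested on 11 to 158 reads in senescent cells, with a median of 42, beside a median of 32 over that whole list. Proliferating-only sites rested on 6 to 93 reads in proliferating cells, with a median of 27, beside a median of 24 over the list. The largest number of reads from the other state was 6 at a senescent-only site and 5 at a proliferating-only site.

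No read of proliferating cells fell on 7 of the 16 senescent-only sites (43.8%, 23.1 to 66.8), where 55.4% of that list had none. No read of senescent cells fell on 13 of the 17 proliferating-only sites (76.5%, 52.7 to 90.4), where 73.0% of the list had none. Both intervals include the share of the list. At the other 13 sites both states gave reads, so "only" in the name of a list stands for a fold above its lowest value, 10.2 for senescent-only and 10.04 for proliferating-only sites. A count of 0 reads allows up to 3. Where the other state had none, no ratio is given, and for some of these sites a lower limit of the ratio is given instead. Those limits are exact binomial ones and do not use the bound of 3 reads. Intervals here cover counting error only.

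**Figure D2:**
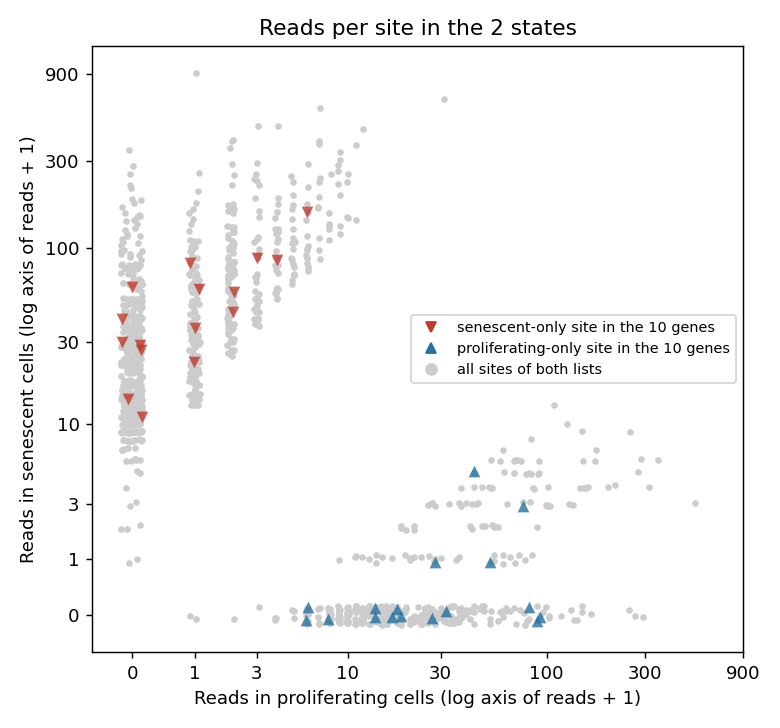
Reads in senescent cells (vertical) against reads in proliferating cells (horizontal) for each site, on log axes of reads + 1 with a small random shift. Red triangles pointing down are the 16 senescent-only and blue triangles pointing up the 17 proliferating-only sites of the 10 genes, and grey points are all 1249 sites. No site of the 10 genes has more than 6 reads in the state opposite to its list.

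ATXN1, CAMTA1 and HIVEP3 encode regulators of transcription. ATXN1 is a chromatin-associated repressor and the protein whose expanded glutamine tract causes spinocerebellar ataxia type 1. Its gene spans 16299343 to 16761722 on the minus strand of chromosome 6. The senescent-only site, at 16337505 to 16337654, had 44 senescent reads and 2 proliferating reads, a ratio of 18.3 after scaling (95% interval 4.78 to 156). It lay late in the gene, at 91.7% of its length from the 5′ end. Both proliferating-only sites lay at 62.4% and 62.5% of the gene. The site at 16472906 to 16473055 had 3 senescent and 77 proliferating reads, and the one at 16472553 to 16472702 had 0 and 27. Their centres were 353 bases apart and their start pairs pointed away from each other. The starts of both states fell in the same intron, number 6 of the canonical transcript, with 135 kb between them and no annotated transcript start of ATXN1 in that interval (0).

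CAMTA1, a calmodulin-binding transcription activator on the plus strand of chromosome 1 (6845514 to 7829766), held 5 senescent-only sites and 1 proliferating-only site, 6 in all, as many as NXN. All 5 senescent-only sites lay in intron 5, between 52.3% and 62.7% of the gene. The first, at 7359978 to 7360127, had 158 senescent and 6 proliferating reads, the most own-state reads of any site in the 10 genes (scaled ratio 21.9, 9.86 to 60.7). The next 3 formed a cluster, with 57, 40 and 83 reads in senescent cells against 2, 0 and 1 in proliferating cells. In this cluster the start at 7395317 to 7395466 read toward the gene's 5′ end and the start at 7395565 to 7395714 toward its 3′ end, a divergent pair 248 bases apart. The last, at 7462251 to 7462400, had 88 senescent and 3 proliferating reads. The proliferating-only site lay in intron 21, at 98.3% of the gene (7812933 to 7813082), with 0 senescent and 14 proliferating reads. It was 351 kb from the nearest senescent-only start, the widest such gap in the 10 genes, and 15 annotated CAMTA1 starts lay in that gap.

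HIVEP3, a large zinc-finger protein also known as Schnurri-3 that restrains bone formation in mice, lies on the minus strand of chromosome 1 (41972036 to 42501596). Its senescent-only site, in intron 3 at 78.0% of the gene (42088599 to 42088748), had 14 senescent and 0 proliferating reads. That position also falls within an unnamed coding gene annotated on the same strand. Its proliferating-only sites, in intron 1 at 27.2% of the gene, had 0 reads in senescent cells each and 93 and 90 in proliferating cells. The exact binomial lower limits of their ratios, proliferating over senescent, were 29.7 and 28.7. These were the most proliferating reads at any proliferating-only site of the 10 genes, but the sites (42357307 to 42357456 and 42357328 to 42357477) share 129 bases. Over both lists, 15 pairs of sites had centres within 25 bases, and in 9 of them both sites had equal reads. Overlapping sites may thus count the same reads, and HIVEP3 is best read as 1 proliferating-only region.

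CELF4 acts on RNA, and KLHL29 belongs to a family linked to protein turnover. CELF4 is an RNA-binding protein of the CUGBP and Elav-like family, best known from neurons, on the minus strand of chromosome 18 (34823003 to 35145790). Its senescent-only site, at 96.4% of the gene (34834525 to 34834674), had 30 senescent and 0 proliferating reads. It lay 655 bases before the start of a CELF4 transcript with no defined coding sequence, the smallest distance to an annotated start among the 33 sites. The proliferating-only site, in intron 2 at 53.2% of the gene (34974150 to 34974299), had 5 senescent and 44 proliferating reads. Its fold of 10.5 (proliferating over senescent) was just inside the lowest fold of the list, and the scaled ratio had an interval of 4.20 to 34.1. The starts were 140 kb apart. Both CELF4 sites were rich in G and C, with GC contents of 67% and 71% and CpG ratios of 0.857 and 0.780, the highest of the 10 genes on both measures save the GC content of 1 BCAS3 site.

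KLHL29, a Kelch-like protein of a family that includes substrate adaptors of ubiquitin ligases, lies on the plus strand of chromosome 2 (23608050 to 23931481). Its senescent-only site, at 68.7% of the gene, had 29 senescent and 0 proliferating reads. Its proliferating-only sites, 432 bases apart at 55.2% and 55.4% of the gene, had 0 reads in senescent cells each and 17 and 8 in proliferating cells. All 3 lay in intron 3, which is 76657 bases long, and the gap between the states was 43.0 kb with no annotated KLHL29 start in it (0).

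BCAS3, FRMD4A and GPC6 act at the cytoskeleton and the cell surface. BCAS3, named for its amplification in breast carcinoma and known for roles in cell migration and autophagy, lies on the plus strand of chromosome 17 (58754814 to 59470199). Its senescent-only site, in intron 22 at 80.2% of the gene (59328477 to 59328626), had 61 senescent and 0 proliferating reads. The exact binomial lower limit of its ratio, senescent over proliferating, was 13.4, the highest among the senescent-only sites here with no read of the other state. Its proliferating-only site lay at 99.6% of the gene (59467338 to 59467487), with 1 senescent and 28 proliferating reads. It was the only exonic site of the 33, in an exon of a retained-intron transcript of BCAS3, and its GC content was 68.5%. That position also falls within another annotated gene, which is unnamed. Without the sites that fall in another gene, here and in HIVEP3, 8 genes held sites of both lists.

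FRMD4A, a FERM-domain scaffold of epithelial polarity on the minus strand of chromosome 10 (13685706 to 14504141), had its senescent-only site at 38.5% of the gene, with 59 senescent reads and 1 proliferating read (scaled ratio 49.2, 8.49 to 1975). It was the 1 senescent-only site of the 10 genes that lay before the middle of its gene. The proliferating-only site, at 71.4% (13919588 to 13919737), had 0 senescent and 6 proliferating reads. The exact binomial lower limit of its ratio, proliferating over senescent, was 1.41, the smallest among sites with no read of the other state and the same as at 1 NXN site. Both fell in intron 2, which is 471144 bases long, and were 269 kb apart.

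GPC6, a glypican that carries heparan sulphate at the cell surface, is the longest of the genes at 1181 kb, on the plus strand of chromosome 13 (93879060 to 95060274). Its senescent-only site lay in intron 6 at 91.9% of the gene (94964293 to 94964442), with 11 senescent and 0 proliferating reads. Its proliferating-only sites lay in introns 3 and 4, 655 kb and 886 kb from the 5′ end, with 0 reads in senescent cells each and 14 and 18 in proliferating cells. They were 231 kb apart, farther from each other than the nearer one was from the senescent-only start (200 kb).

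NXN and MAP3K7CL are linked to signalling. NXN, or nucleoredoxin, is a thioredoxin-like protein that restrains Wnt signalling by binding Dishevelled, on the minus strand of chromosome 17 (702550 to 883016). It held 2 senescent-only and 4 proliferating-only sites, all 6 in intron 1. The senescent-only sites, at 61.2% of the gene, had 36 and 23 reads in senescent and 1 read each in proliferating cells, and they share 27 bases. The proliferating-only sites lay between 66.6% and 73.2% of the gene and had 0 reads in senescent cells each, with 6, 82, 19 and 32 in proliferating cells in gene order. The sites with 6 and 82 reads share 94 bases and may count some of the same reads. The smallest gap between the states was 9.61 kb, the shortest of the 10 genes. The 2 annotated starts in that gap, of NXN transcripts at 767351 and 767337, lay 5.14 kb and 4.46 kb from the nearest senescent-only and proliferating-only centres.

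MAP3K7CL, named for its likeness to the end of the kinase MAP3K7 (TAK1), is the shortest of the genes at 98.7 kb, on the plus strand of chromosome 21 (30449542 to 30548210). Its senescent-only sites, in intron 4 at 87.1% and 87.6% of the gene, had 86 and 27 reads in senescent against 4 and 0 in proliferating cells. The proliferating-only site (30471872 to 30472021), at 22.7% of the gene, had 1 senescent and 53 proliferating reads (scaled ratio 63.6, 10.9 to 2559, proliferating over senescent). It lay outside the canonical transcript, in an intron of longer ones, 7.37 kb from the nearest annotated start. Its distance of 22.4 kb to the 5′ end was the smallest of the 33 sites.

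The order of the states along the gene was not fixed. The median senescent-only site lay nearer the 5′ end in BCAS3, CAMTA1, FRMD4A and NXN (4 genes), and the median proliferating-only site in ATXN1, CELF4, GPC6, HIVEP3, KLHL29 and MAP3K7CL (6 genes). The difference in position, senescent-only minus proliferating-only, ran from -42.4 points of gene length in CAMTA1 to 64.7 points in MAP3K7CL. Over all sites the median position was 65.7% for senescent-only (38.5% to 96.4%) and 62.5% for proliferating-only sites (22.7% to 99.6%), and 15 of 16 and 14 of 17 lay past the middle of the gene. Over the sites of the lists with a single coding host gene, 92.3% of 743 senescent-only and 89.9% of 346 proliferating-only sites did so. Lying late in the gene was thus common to the lists. How the sites were called is not known, and whether the calling favoured sites late in genes was not tested. Among the 4 genes in which some site of each list had no read of the other state, counting such sites alone, the senescent-only site came first in 1.

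**Figure D3:**
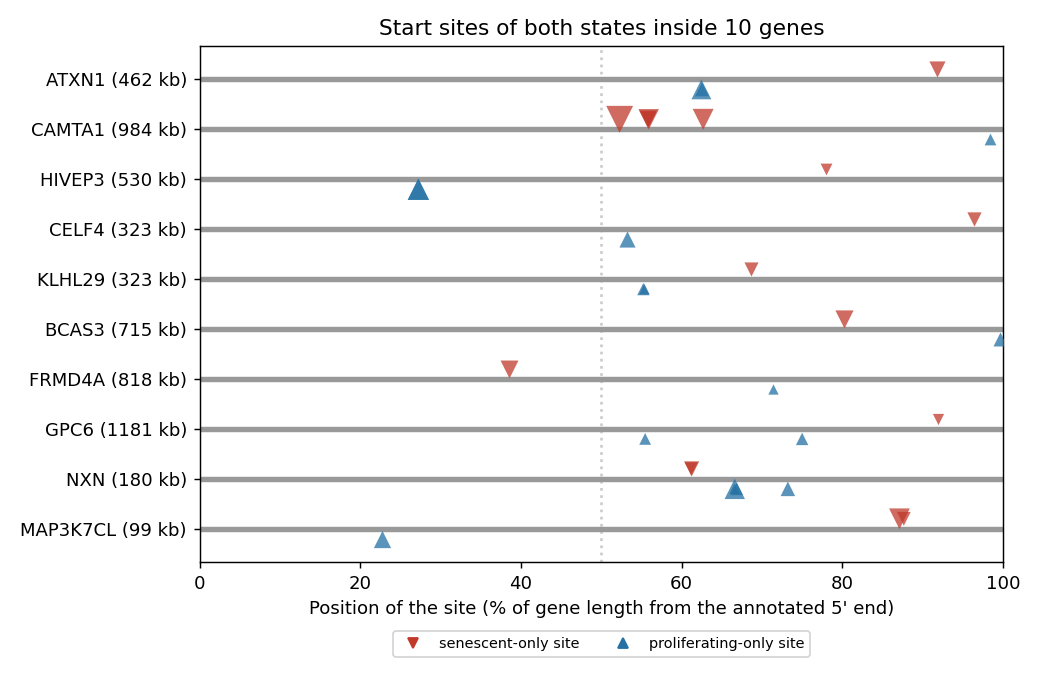
Position of each site as % of gene length from the annotated 5′ end, 1 gene per row with its length in kb. Red triangles pointing down are senescent-only and blue triangles pointing up proliferating-only sites, with an area that grows with the reads of the site's own state, and the dotted line is the middle of the gene. Senescent-only sites come first in 4 rows and proliferating-only sites in 6.

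Starts of unlike states were far apart, while several starts of the same state sat close together. The smallest distance between the lists within a gene ran from 9.61 kb in NXN to 351 kb in CAMTA1, with a median of 139 kb. In ATXN1, FRMD4A, KLHL29 and NXN (4 genes) both states had a site in the same intron. In 7 genes at least 1 annotated start of the gene lay between the nearest starts of the states, and in ATXN1, GPC6 and KLHL29 none did (0). GPC6 has only 1 annotated start, at its 5′ end, so none could lie between its sites. ATXN1 has 12 annotated starts and KLHL29 has 4, beside 7 to 31 in the 7 genes. The members were long genes, with a median of 496 kb beside 144 kb for the 598 coding genes with sites of 1 list, and 9 of them exceeded that median. A long gene has more room for sites of both lists and for distance between them, so length and distance cannot be told apart from how the genes were chosen. A site also enters a list by its fold of 1 state over the other. Sites of unlike lists could thus hardly overlap, while sites of 1 list could, and 3 pairs did.

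**Figure D4:**
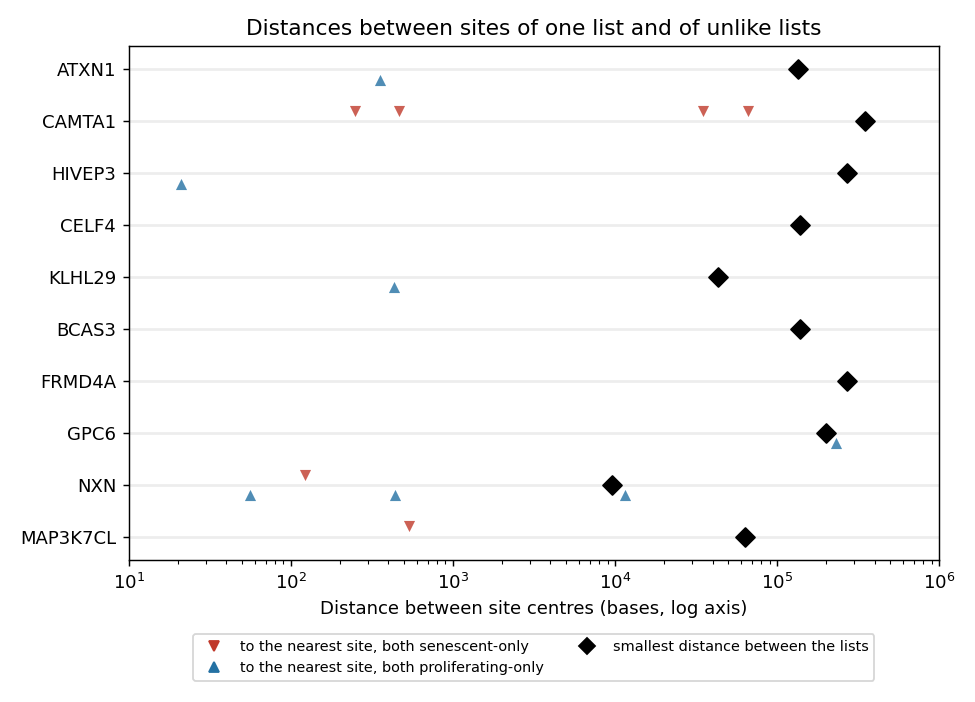
Distance in bases (log axis) between site centres in each gene. Black diamonds are the smallest distance between a senescent-only and a proliferating-only site, and red triangles pointing down (senescent-only) and blue triangles pointing up (proliferating-only) are the distances to the nearest site of the same list in the gene. The diamonds run from 9613 bases in NXN to 350682 bases in CAMTA1, and genes without a triangle have 1 site of each list.

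Within 500 bases of another site of the same list lay 5 of 16 senescent-only sites (31.2%, 14.2 to 55.6), where 43.5% of that list did, and 9 of 17 proliferating-only sites (52.9%, 31.0 to 73.8), where 50.2% did. They made 8 neighbouring pairs, of which 6 had a start pair at both centres. The CAMTA1 pair 248 bases apart and the ATXN1 pair 353 bases apart were divergent. Those of HIVEP3, NXN (56 bases) and CAMTA1 (466 bases) pointed toward each other, and another of NXN (442 bases) ran on 1 strand. Over the lists, 154 of 197 senescent-only and 89 of 115 proliferating-only pairs within 500 bases had a start pair at both centres. Of these, 114 senescent-only (74.0%) and 44 proliferating-only pairs (49.4%) were divergent. Between 76 and 300 bases, where the CAMTA1 pair lies, the divergent shares of such pairs were 89.8% of 108 and 62.3% of 61. The pairs of the 10 genes were too few to place beside these shares.

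Relative to the gene, 9 of the 13 senescent-only sites with a start pair ran in the sense direction (69.2%, 42.4 to 87.3), where 51.3% of the 636 sites of that list with a start pair and a single coding host gene did. Of the 13 proliferating-only sites with a start pair 5 ran in the sense direction (38.5%, 17.7 to 64.5), where 49.0% of 298 such sites of the list did. Both intervals include the share of the list. In BCAS3 the senescent-only start was sense and the proliferating-only start antisense, and the same was true of CELF4 and of the MAP3K7CL and KLHL29 sites that could be read. GPC6 went the other way, with an antisense senescent-only start and a sense proliferating-only start at the site that could be read. In FRMD4A both ran with the gene. In HIVEP3 and NXN the senescent-only start that could be read was antisense, and the proliferating-only starts ran in both directions. In ATXN1 the senescent-only start was sense and the proliferating-only starts ran in both directions. In CAMTA1 the senescent-only starts ran in both directions and the proliferating-only start could not be read. The start pair was CA, the most common form, in 10 of 16 senescent-only sites (62.5%, 38.6 to 81.5), where 50.5% of the list had it. It was CA in 4 of 17 proliferating-only sites (23.5%, 9.56 to 47.3), where 48.8% of the list had it. This interval lies just below the share of the list, 1 of several features compared, and sites that overlap are not independent.

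AP-1 matches were sought on either strand in the 200 bases around the centre, a little wider than the site. Where sites are close, windows overlap. They were found at 5 of 16 senescent-only sites, in CAMTA1, FRMD4A, KLHL29 and NXN (31.2%, 14.2 to 55.6), where 18.4% of that list had one. They were found at 2 of 17 proliferating-only sites, in ATXN1 and GPC6 (11.8%, 3.29 to 34.3), where 10.0% of the list had one. Both intervals include the share of the list. Among the 7 senescent-only sites with no read of the other state 14.3% had a match, that of KLHL29. Among the 13 such proliferating-only sites 15.4% had one, those of ATXN1 and GPC6. The order of the lists was not kept, but these sites are too few to give an order. The share over all such sites of the lists is not given here. Both NXN sites shared 1 match, at 772573 to 772579. No gene had a match at sites of both lists (0). The middle of the match lay 3 bases from the centre of the site in KLHL29, 14 bases in FRMD4A and 15 bases in GPC6, and between 41 and 82 bases at the other matches, the second of KLHL29 among them. The GPC6 site and 1 of the NXN sites had no start pair, so their distances are to the centre and not to a start base that was read. A TATA match (TATAAA or TATATA, either strand) was present at 2 of 16 senescent-only sites (12.5%), where 14.7% of the list had one, and at 3 of 17 proliferating-only sites (17.6%), where 14.0% did. None began 22 to 37 bases before a start on its own strand (0 of 16 and 0 of 17), where 2.12% and 2.75% of the lists had such a match.

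The sites were otherwise of mixed composition. Median GC content was 49.8% at senescent-only sites (36.5% to 67%), beside 45.5% over the list, and 49% at proliferating-only sites (34.5% to 71%), beside 47.2% over the list. The CpG ratio, observed over expected from the base content, had medians of 0.186 and 0.348, beside 0.186 and 0.247 over the lists. By the annotation, 15 of 16 senescent-only sites were intronic (93.8%, 71.67 to 98.89), where 82.9% of the list was. So were 16 of 17 proliferating-only sites (94.1%, 73.02 to 98.95), where 72.0% of the list was. The senescent-only interval includes the share of its list. The proliferating-only interval lies just above the share of its list, and sites that overlap are not independent. Within 1 kb of a transcript start, the class counted as promoter, lay 1 senescent-only site, that of CELF4, and 0 proliferating-only sites, where the lists had 8.72% and 16.8%. In exons lay 0 senescent-only sites and 1 proliferating-only site, that of BCAS3, where the lists had 8.36% and 10.0%. A site counts here only if it lies in 1 of 10 long genes, and the bearing of that choice on the intronic share was not tested.

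**Figure D5:**
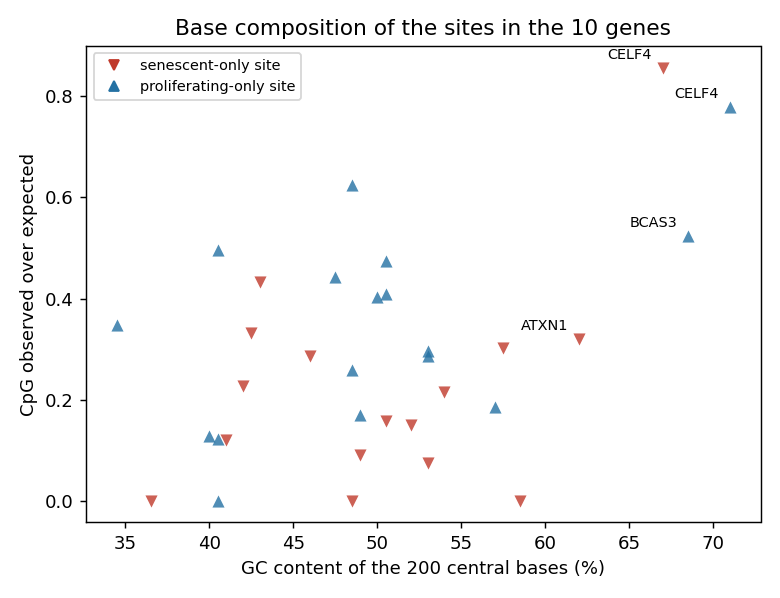
CpG observed over expected (vertical) against GC content in % (horizontal) of the 200 central bases, with senescent-only sites as red triangles pointing down and proliferating-only sites as blue triangles pointing up. Both CELF4 sites stand at the upper right, with 67% and 71% GC, while the other sites of GC content above 60% belong to ATXN1 and BCAS3.

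Among 58 relatives of the 10 genes (ATXN1L, CAMTA2, other CELF, GPC, HIVEP and KLHL genes, FRMD4B, NXNL1, NXNL2, TXN, MAP3K7 and its TAB partners), 1 held a senescent-only site and 0 held a proliferating-only site. That relative was HIVEP2, a zinc-finger paralogue of HIVEP3, with 4 senescent-only sites. Of all 20149 coding genes, 2.03% held a senescent-only and 1.09% a proliferating-only site, so the count among the relatives is near the background. The 6 other coding genes with sites of both lists had gaps between the lists of 15.7 to 311 kb and a median length of 658 kb. NXN (9.61 kb) had a shorter gap and CAMTA1 (351 kb) a wider one than any of these.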

How the data were processed

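Capped 5′ ends (PRO-cap) and engaged polymerases (PRO-seq) were sequenced in senescent and proliferating IMR90 cells. The authors deposited 4 site lists, of which 2 are distinct. Each site has a fold, a linear ratio of the 2 states as the authors computed it; its direction was taken from the list's name, per the file names. How sites were called, and whether libraries were pooled for it, was not given in the sources used here, though the labels name pooled signal tracks of libraries A and B. The tools named, with no role, are bedtools 2.27.1-65, cutadapt 2.10, BWA 0.7.10, SAMtools 1.1 and HOMER, per the submitters' processing notes, which list hg19 among the builds.

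Coordinates were read against GRCh37 (0 sites past a chromosome end) and GENCODE 44 lifted to it. Reads were recovered from the folds as described, which was tested on simulated data. Which library or pool they come from, and the total depth, is unknown. Sites whose centre lay up to 1 kb from any annotated start counted as promoter, the rest as exon, intron or intergenic. Scaled ratios have exact binomial and shares Wilson 95% intervals. Sites are not replicates, so no test was run over them. The 10 genes, their relatives and the alternatives were chosen with earlier results of these data known, and the start pair and the pairing of neighbouring sites were added while the files were analysed. All 10 genes are named, with relatives looked up by family. Sequences are of the sites with most reads in the 2 genes with the smallest gap between lists, and of 3 further sites with an AP-1 match or an annotated start nearby. Python 3.11.15, pandas 2.3.3, NumPy 2.4.6, SciPy 1.17.1 and Matplotlib 3.10.9 were used.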

Additional observations from a re-analysis of the deposited data

How the results depend on the processing

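Of 302 values over 18 results and their alternatives, 292 stayed within the counting interval of the value given, or within 1.5 times a count, and 10 did not. These intervals are wide, and no site lay before its gene, so many values had little or no room to move. The count is therefore no measure of how firm the results are. Sites with no read of the other state numbered 7 senescent-only sites; by construction their share with no such read was 100% in both lists. Among sites with no such read the AP-1 share was 14.3% for senescent-only and 15.4% for proliferating-only sites, both counted as staying within the interval. There the senescent-only site came first in 1 gene, no senescent-only site had a TATA match (0%) and all proliferating-only sites were intronic (100%). The intronic share was also 100% for proliferating-only sites outside other annotated genes and for senescent-only sites with a promoter distance of 500 bases. With 1 gene left out at a time it ran from 90.9% to 100% for senescent-only and from 92.3% to 100% for proliferating-only sites, the highest values being without CELF4 and without BCAS3. No paired analysis was possible because each fold compares whole states and no library has a value of its own, so leaving out a replicate was not possible either. Depth limits single sites: 6 reads against 0, as in FRMD4A, give an exact binomial lower limit of 1.41 for the scaled ratio.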
